A study of Mus musculus with 26 samples.

Results

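The genes described here encode the eukaryotic translation initiation factors (eIFs) of mouse S49 cells, a T lymphoma line grown in suspension. A gene was taken as a member if a probe set of the array carried a single gene symbol that starts with Eif and a digit from 1 to 6, and symbols of the eIF2 kinases (Eif2ak) were left out. The rule found 38 of the 12393 genes with such a symbol, on 94 probe sets. It reads symbols and no expression value, but it was chosen with earlier results of these data known. The brightest probe set stood for each gene. Of the 38 genes, 36 passed the filter on dim probe sets (log2 intensity of at least 5 on at least 3 arrays), as did 7435 of all genes. A further 3 probe sets for Eif3j1 and Eif3j2 carried several symbols and were left out.

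The series holds 26 arrays of total RNA from wild-type S49 cells (WT) and from a variant line called deathless (D-). Each line was measured untreated (4 arrays) and after 2, 6 and 24 h with 8-CPT-cAMP, an analogue of cyclic AMP (3 arrays at each time). The untreated arrays are from the start, and no untreated culture was measured at 2, 6 or 24 h. Every comparison of treated with untreated cells therefore holds time in culture as well as the drug. The part of each in the changes was not tested. The labels give a dose of 100 mM, whose unit may be a slip, so the dose is uncertain. The labels give 1 culture text for both lines, which names D- cells and a medium with horse serum, and they name no genetic alteration of D-. S49 cells stop dividing and die when cyclic AMP activates protein kinase A, and D- cells are a variant that survives. The titles of the treated WT arrays say untreated beside a time, whereas their descriptions and sources say treated, and the latter were followed. Replicates are called biological, but separate cultures are not described, so p-values measure only the spread between these samples. Because the RNA is from bulk cultures, fewer cells of a kind and less RNA per cell cannot be told apart.

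Initiation joins a ribosome to an mRNA and sets it at the start codon. eIF1, eIF1A and eIF3 prepare the small ribosomal subunit for scanning. eIF2 brings the initiator tRNA with GTP, eIF5 makes eIF2 hydrolyse that GTP at the start codon, and eIF2B reloads eIF2 with GTP. The cap-binding protein eIF4E, the scaffold eIF4G and the helicase eIF4A bring in the mRNA, and 4E-binding proteins hold eIF4E away from eIF4G. eIF5B joins the subunits, eIF6 keeps the large subunit apart until it is needed, and eIF5A, named for initiation, mainly helps elongation and termination. Growing lymphocytes make large amounts of these factors, and Myc is a known activator of several of their genes.

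T cell markers were present in every group. Of 11 measured T cell markers, 10 or 11 had a group mean of at least log2 5, whereas 0 or 1 of 5 B cell markers, 1 or 2 of 6 myeloid markers and 0 of 4 stromal markers did. Those above it were Cd79a in all groups but D- at 24 h, Csf1r in all groups and Itgam at 24 h in both lines. Of 2 erythroid markers, Klf1 was above it in all groups and Hba-a1 in none. Cd79b, Pax5, Ms4a1, Lyz2, Mpo, Col1a1 and Dcn were below it in all groups. Of the T cell markers, Cd247 was below it in every D- group and in no WT group, and Ptcra only in WT at 24 h. The summed intensity of the T cell markers lay between 2.64e+04 and 2.99e+04 in untreated WT, between 1.59e+04 and 2e+04 at 6 h and between 2.84e+04 and 3.31e+04 at 24 h. In D- it lay between 2.85e+04 and 3.15e+04 untreated, between 1.23e+04 and 1.53e+04 at 6 h and between 3.25e+04 and 3.5e+04 at 24 h, and its part in the eIF results was not tested. Within groups the arrays fell into 2 clusters of 10 and 16 along an axis that held 38.8% of the within-group variance. The smaller cluster was made of untreated replicates 1 and 2 and the first replicate at every treated time. A ratio of 3′ to 5′ Gapdh signal, a gauge of RNA integrity, averaged -0.146 ± 0.058 (SD, n = 10) on the log2 scale in that cluster and 0.018 ± 0.0942 (SD, n = 16) in the other.

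eIF transcripts fell with time in both lines. After 24 h, 22 of the 36 genes had fallen and 5 had risen in WT, and 19 had fallen and 3 had risen in D-. A gene is called higher or lower throughout at an adjusted p under 0.05 in limma, with Benjamini-Hochberg adjustment over all 12724 probe sets tested. Eif4ebp1, which encodes a brake on eIF4E, showed the largest fall among the 36 genes in each line at 24 h, and Eif4e3, which encodes a cap-binding relative of eIF4E, the largest rise. In WT the 22 genes are 61.1% of the members, beside 27.5% of all tested genes called lower. In D- the 19 genes are 52.8%, beside 17.6%. Calls in either direction reached 53.8% of all tested genes in WT and 34.7% in D-. Rises made up a smaller share than among all genes: 13.9% of members beside 26.4% in WT, and 8.33% beside 17.1% in D-.

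The fall built up over the day. At 2 h in WT, 5 members were lower and 1 higher, or 13.9% and 2.78%, beside 13.9% and 11.2% of all tested genes (25.1% in either direction). At 6 h in WT, 17 were lower and 2 higher, and 19.1% of all tested genes were called in each direction, or 38.2% together. In D-, 1 member was called at 2 h, and it was lower, beside 13.2% of all genes called lower and 9.05% called higher (22.3% together). On a dimmer probe set 8 further members were called at 2 h in D-, all lower. At 6 h in D-, 11 were lower and 1 higher, beside 15.6% and 16.2% (31.8% together). The median log2 change over the 36 genes was -0.08, -0.23 and -0.37 at 2, 6 and 24 h in WT, and 0.01, -0.21 and -0.32 in D-. Medians over all tested genes lay between -0.02 and 0.00 in these comparisons.

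**Figure D1:**
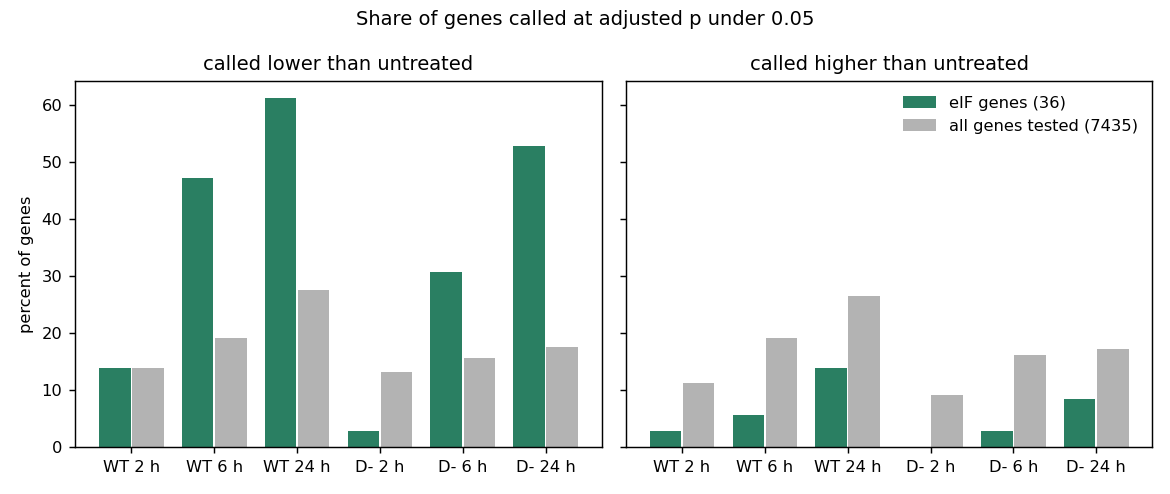
Percent of genes called lower (left) or higher (right) than untreated cells at adjusted p under 0.05, for 36 eIF genes (green) and 7435 tested genes (grey), in WT and D- at 2, 6 and 24 h. At 24 h the green bars for lower calls stand at 61.1% in WT and 52.8% in D-, above the grey bars at 27.5% and 17.6%.

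At 24 h every treated array lay below every untreated array for 22 members in WT and 17 in D-, beside 27% and 19.7% of tested genes.

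The same genes made up most of the calls. Of 17 genes lower at 6 h in WT, 16 were lower at 24 h, and of 11 in D-, 10 were. At 24 h, 18 genes were lower in both lines, which is 18 of 22 in WT and 18 of 19 in D-. Among all tested genes 1110 were lower in both, of 2042 lower in WT and 1310 lower in D-. For the overlaps of 6 and 24 h and the gene lists that follow, no such count over all tested genes was made. The times of a line also share its untreated arrays. The genes lower at both 6 and 24 h in both lines numbered 9: Eif1a, Eif2b1, Eif2s2, Eif2s3x, Eif3b, Eif3d, Eif3l, Eif4ebp1 and Eif5. Single arrays left out ended a 6 h call of Eif2s2, Eif3b, Eif3d and Eif4ebp1 in D- and of Eif3l and Eif4ebp1 in WT. Another 5 genes were called in none of the 6 treatment comparisons: Eif3i, Eif3k, Eif4b, Eif4enif1 and Eif4g2. That count holds for the brightest probe set: dimmer ones of Eif3i, Eif4b and Eif4g2 were called in some comparisons, as given with the other probe sets. Members had a median standard error of 0.12 for the WT 24 h change on the log2 scale, beside 0.152 over all tested genes, so changes of a given size are called more readily among them.

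**Figure D2:**
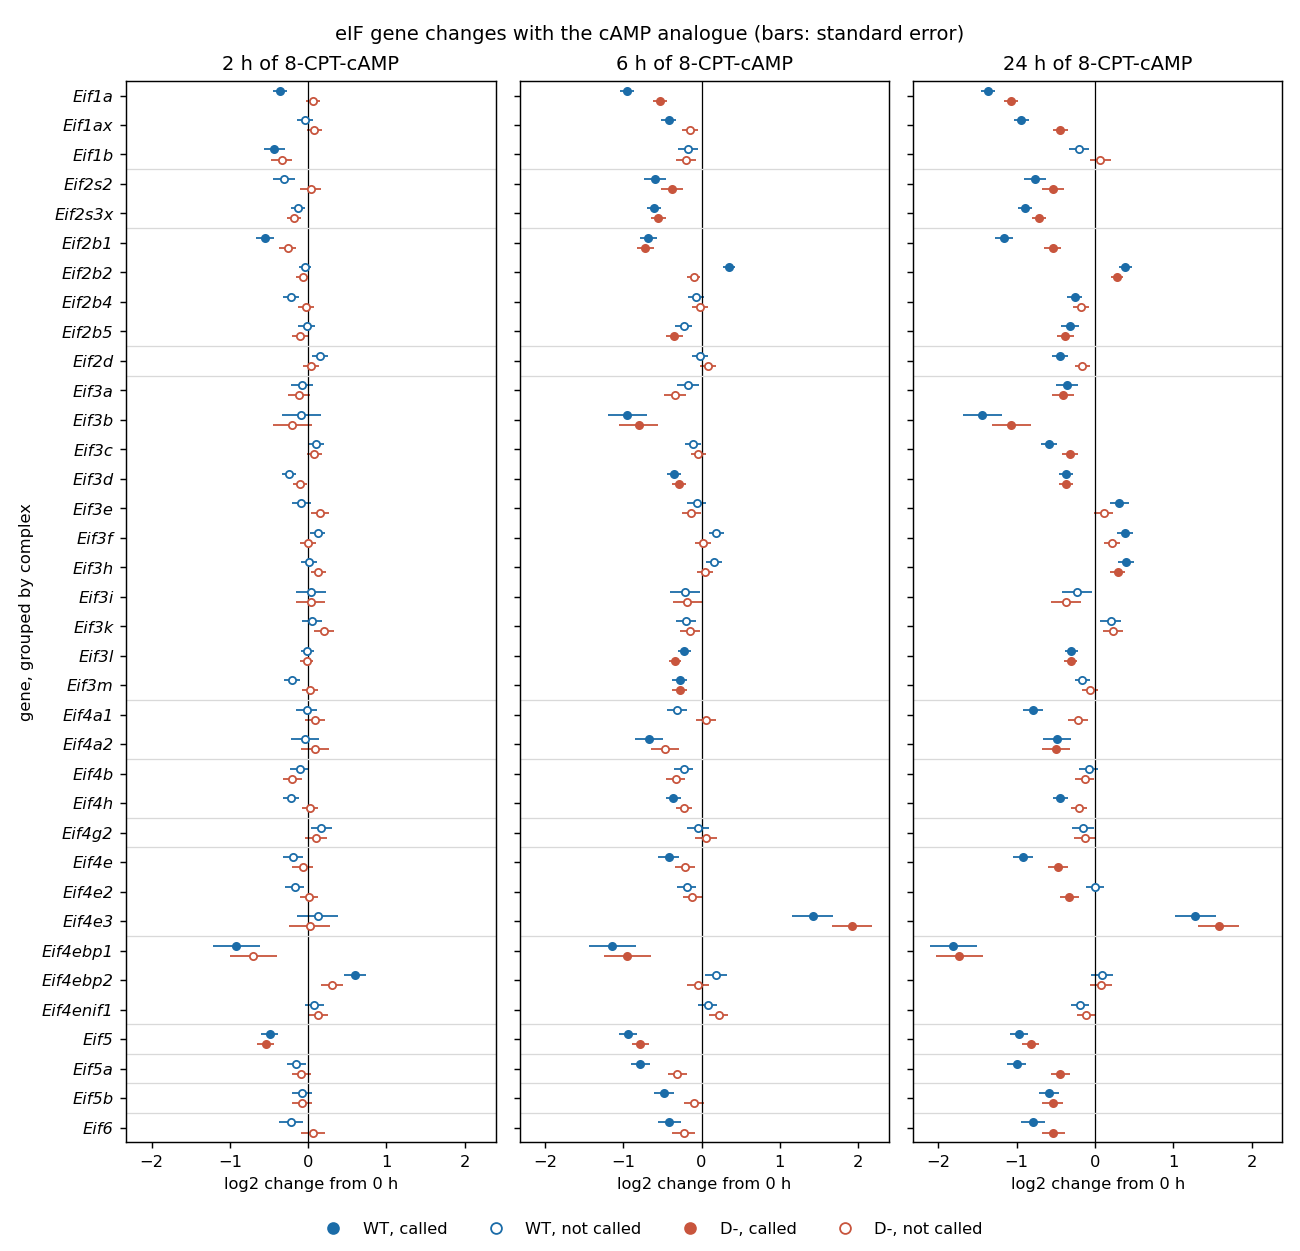
Log2 change from untreated cells (horizontal axis) of each of 36 eIF genes (rows, grouped by complex) at 2, 6 and 24 h in WT (blue) and D- (red); bars are standard errors and filled points are calls at adjusted p under 0.05. Most points at 24 h lie left of 0, with Eif4ebp1 at -1.81 in WT and -1.73 in D-, and Eif4e3 lies right at 1.28 and 1.58.

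The calls held with the array cluster as a block but varied when each cluster was fitted alone. With the block all 27 WT calls and all 22 D- calls at 24 h were made again. The clusters were cut from the within-group deviations of these same arrays, so neither the block nor the fits within them are independent checks. The block removes part of the within-group spread by construction, so it could hardly have ended these calls. Within the larger cluster 26 of the 27 WT calls and 21 of the 22 D- calls at 24 h were made again. Within the smaller cluster, which has 1 treated array per group and 2 residual degrees of freedom, 10 and 3 were, while all 27 and 22 kept their direction. Values over 1.5 times smaller there at 24 h in WT were those of Eif3b (-0.68 in place of -1.44), Eif3c (-0.23 for -0.59), Eif4a1 (-0.42 for -0.79), Eif4a2 (-0.12 for -0.48), Eif4h (-0.17 for -0.44), Eif2b5 (-0.03 for -0.32), Eif3a (-0.18 for -0.36) and Eif3l (-0.14 for -0.30). In D- they were those of Eif1ax (-0.26 for -0.44), Eif2b1 (-0.25 for -0.54), Eif2b5 (-0.21 for -0.38), Eif2s2 (-0.20 for -0.53), Eif3d (-0.22 for -0.37), Eif4e2 (-0.17 for -0.33), Eif5a (-0.26 for -0.44) and Eif6 (-0.16 for -0.53). Leaving out 1 array at a time ended the call of 5 of the 27 genes in WT and 7 of the 22 in D-, which are given with each gene.

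The promoters of the members were read because they fell together and because Myc, which binds the E-box CACGTG, fell as well. Myc changed by -2.49, -2.11 and -2.16 at 2, 6 and 24 h in WT and by -3.16, -1.65 and -1.52 in D- (adjusted p from 6.96e-08 to 0.000464, limma), and its part in the eIF results was not tested. RefSeq promoter windows, from 250 bases before to 50 bases after a start site on GRCm38.p6, were found for 28 of the 36 genes. No window was found for Eif1a, Eif3e, Eif3h, Eif3i, Eif4e3, Eif4ebp1, Eif4g2 and Eif6, so the motif counts leave them out. These genes include the members with the largest fall and the largest rise at 24 h. CACGTG, which reads the same on both strands, was in a window of 8 genes (28.6%), beside 12.3% of 6077 tested genes and 8.91% of 17491 protein-coding genes. The stretches around it are shown for 5 of the 8, chosen to set genes that fell beside one that rose, with the E-box in capitals, 5′ to 3′ on the gene's strand. They come from chr3:138527167-138527246 (plus strand) for Eif4e, chr11:69921418-69921497 (minus) for Eif5a, chr11:69672570-69672649 (minus) for Eif4a1, chr5:134639463-134639542 (minus) for Eif4h and chr7:108934310-108934389 (plus) for Eif3f.
Eif4e: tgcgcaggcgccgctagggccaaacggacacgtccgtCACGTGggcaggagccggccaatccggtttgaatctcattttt
Eif5a: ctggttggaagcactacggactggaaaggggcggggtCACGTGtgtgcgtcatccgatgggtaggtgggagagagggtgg
Eif4a1: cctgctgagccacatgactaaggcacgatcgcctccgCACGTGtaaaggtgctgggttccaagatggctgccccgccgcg
Eif4h: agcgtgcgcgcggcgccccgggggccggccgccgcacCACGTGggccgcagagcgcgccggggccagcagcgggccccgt
Eif3f: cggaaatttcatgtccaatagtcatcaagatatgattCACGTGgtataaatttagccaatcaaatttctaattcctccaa

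The E-box starts 64 bases before the start site in the Eif4e stretch, 74 in that of Eif5a, 189 in that of Eif4a1, 96 in that of Eif4h and 68 in that of Eif3f. Eif4e, Eif5a, Eif4a1 and Eif4h fell in WT at 24 h, by 0.92, 1.0, 0.79 and 0.44, while Eif3f rose by 0.38. The other 3 genes with an E-box were Eif3a, Eif1b and Eif3k. Across the 8 genes, 5 were lower and 1 higher at 24 h in WT, with a median of -0.40. Across the 20 genes with a window and no E-box, 14 were lower and 1 higher, with a median of -0.41. At 24 h in D- the medians were -0.21 and -0.35, with 3 of 8 and 13 of 20 lower.

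The cyclic AMP response element was searched in the same windows. The full site TGACGTCA, which reads the same on both strands, was in no window of the 28 genes, beside 3.65% of tested genes and 2.54% of protein-coding genes. The shorter site TGACG, searched on both strands and contained in the full site, was in 15 genes (53.6%), beside 38.1% and 26.2%. A match describes letters in a window and shows no binding.

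Among factors that start scanning, Eif1a fell in steps. Its product, eIF1A, steadies the scanning ribosome. Its log2 intensity in WT was 10.32, 10.30, 10.40 and 10.49 untreated, 10.16, 9.91 and 9.98 at 2 h, 9.39, 9.58 and 9.33 at 6 h, and 9.11, 8.94 and 8.97 at 24 h. Every WT array at a later time lay below every array at an earlier one. The D- values were 10.52, 10.43, 10.53 and 10.76 untreated, 10.67, 10.60 and 10.59 at 2 h, 10.02, 10.00 and 10.08 at 6 h, and 9.56, 9.39 and 9.51 at 24 h. The D- arrays at 2 h overlapped the untreated ones, and the later ones did not. In limma the WT change was -0.36 ± 0.09 (SE) at 2 h (adjusted p = 0.00514), -0.95 ± 0.09 at 6 h (8.68e-08) and -1.37 ± 0.09 at 24 h (1.46e-10), or 2.59-fold at 24 h. Within the smaller array cluster the 2 h change was -0.15 and was not called (adjusted p = 0.542). D- arrays gave 0.06 ± 0.09 at 2 h, which was not called, -0.53 ± 0.09 at 6 h (adjusted p = 0.000153, limma) and -1.07 ± 0.09 at 24 h (1.21e-08). A dimmer probe set of Eif1a was called lower at 2 h in D- (-0.36). On the brightest probe set the difference between the lines (D- minus WT) was 0.42 at 2 h, with a 95% interval from 0.15 to 0.69. It was not called (adjusted p = 0.364, limma). The X-linked copy of Eif1a, Eif1ax, fell by 0.94 at 24 h in WT and by 0.44 in D-. Eif1b, a relative of eIF1, was lower at 2 h in WT (-0.43, adjusted p = 0.0194, limma). The D- change of -0.34 at 2 h was not called (adjusted p = 0.0675, limma), and the difference between the lines was 0.08, with a 95% interval from -0.30 to 0.47. The WT call was lost without WT 2 h replicate 2 (adjusted p = 0.0571) or replicate 3 (0.0868).

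Both measured eIF2 subunit genes fell in both lines. Eif2s2, for the beta subunit, changed by -0.60 and -0.76 at 6 and 24 h in WT and by -0.38 and -0.53 in D-. The D- call at 6 h was lost without untreated replicate 3 (adjusted p = 0.138) or 4 (0.0969) or without 6 h replicate 1 (0.175) or 3 (0.0637). Eif2s3x, for the gamma subunit, changed by -0.61 and -0.89 in WT and by -0.55 and -0.72 in D-. Its Y-linked counterpart Eif2s3y stayed between 2.69 and 3.31 on the log2 scale on all 26 arrays, under the filter.

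The subunits of eIF2B did not move together. Eif2b1, for the alpha subunit that senses phosphorylated eIF2, fell at every time in WT. Its WT values were 9.27, 9.28, 9.41 and 9.15 untreated, 8.76, 8.54 and 8.90 at 2 h, 8.57, 8.61 and 8.61 at 6 h, and 8.20, 8.17 and 7.98 at 24 h. In D- they were 9.13, 8.97, 9.49 and 9.33 untreated, 8.94, 9.02 and 8.94 at 2 h, 8.46, 8.50 and 8.57 at 6 h, and 8.80, 8.49 and 8.77 at 24 h. All WT treated arrays lay below all untreated ones, while D- arrays overlapped untreated ones at 2 h, and 2 of the 3 at 24 h lay above all those at 6 h. The change was -0.55, -0.68 and -1.16 at 2, 6 and 24 h in WT and -0.26, -0.72 and -0.54 in D-, the first of these D- values not being called. Eif2b5, for the catalytic epsilon subunit, was lower at 24 h by 0.32 in WT and 0.38 in D-; without WT 24 h replicate 2 the WT change was -0.17 (adjusted p = 0.212), and without D- 24 h replicate 2 or 3 the D- adjusted p was 0.0531 or 0.054. Eif2b2, for the beta subunit, was higher at 24 h by 0.39 in WT and 0.28 in D-, yet its other 2 probe sets changed by -0.04 and -0.15 in WT, and over the mean of its probe sets the WT change was 0.07 (adjusted p = 0.545, limma). Eif2b4, for the delta subunit, was lower at 24 h in WT (-0.26) and was not called in D- (-0.18). The WT change was -0.16 without untreated replicate 2 (adjusted p = 0.121), and 3 other arrays left out singly ended the call too (0.053 to 0.072), as did the larger array cluster alone (-0.12).

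eIF2D, a factor outside the eIF2 complex that can deliver tRNA without GTP, was measured through Eif2d. Its values were 10.54, 10.81, 10.60 and 10.68 in untreated WT and 10.23, 10.30, 10.48 and 10.28 in untreated D-, where no array overlapped. All 4 D- arrays lay below all 4 WT arrays for this member alone, beside 6.79% of tested genes. The difference was -0.33 ± 0.09 (adjusted p = 0.0453, limma). That call was lost when any of 6 arrays was left out, with adjusted p between 0.0703 and 0.147. At 24 h Eif2d was lower in WT by 0.45, and the D- change of -0.16 was not called. The difference of 0.29 between the lines was not called on this probe set (adjusted p = 0.223, limma) and was on another (0.58, 0.0252).

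eIF3, the largest initiation complex, had genes called in both directions. Of its 11 measured genes, 5 were lower and 3 higher at 24 h in WT, beside 27.5% and 26.4% of all tested genes. In D- 5 were lower and 1 higher, beside 17.6% and 17.1%. The 3 rises in WT are thus near the share of all tested genes. Among the 11 genes Eif3b fell most. It was 10.44, 10.20, 10.08 and 10.14 in untreated WT and 9.64, 8.30 and 8.41 at 24 h, with 9.67, 8.97 and 9.18 at 6 h. In D- the level was 10.51, 10.34, 10.17 and 10.23 untreated, 9.64, 9.29 and 9.61 at 6 h and 9.64, 9.10 and 8.98 at 24 h. Replicate 1 was the highest of its group at 24 h in both lines, and it belongs to the smaller array cluster. The D- 6 h call was lost without replicate 2 at that time (-0.69, adjusted p = 0.0894). Its change at 24 h was -1.44 ± 0.25 in WT (adjusted p = 4.39e-05, limma) and -1.07 ± 0.25 in D- (0.00187). Eif3c and Eif3a changed by -0.59 and -0.36 in WT and by -0.32 and -0.41 in D- at 24 h. The call for Eif3a was the less firm: without untreated WT replicate 3 the change was -0.24 (adjusted p = 0.156), and 4 other WT arrays left out singly gave 0.0555 to 0.0826. In D- 5 arrays left out singly gave 0.0522 to 0.0978. Eif3d, which can bind the cap of some mRNAs, and Eif3l were lower by 0.37 and 0.30 in WT and by 0.37 and 0.31 in D- at 24 h. At 6 h the D- call of Eif3d was lost without any of 3 arrays (adjusted p from 0.0502 to 0.106), and the WT call of Eif3l without any of 5 (0.0518 to 0.0819). With quantile normalization the WT 24 h change of Eif3l was -0.17 and no longer called (adjusted p = 0.0703).

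The 3 eIF3 genes that rose in WT were Eif3h, Eif3f and Eif3e. Eif3h was 12.83, 12.92, 12.62 and 12.65 in untreated WT and 13.17, 13.13 and 13.16 at 24 h, and the groups did not overlap. In D- it was 12.69, 12.66, 12.63 and 12.47 untreated and 12.98, 12.82 and 12.91 at 24 h, again apart. The change was 0.40 ± 0.10 in WT (adjusted p = 0.00144, limma) and 0.29 ± 0.10 in D- (0.0235). The D- call was lost without untreated replicate 4 (adjusted p = 0.0806) or 24 h replicate 1 (0.0819) or 3 (0.0637). Eif3f rose by 0.38 in WT and changed by 0.22 in D-, which was not called, and Eif3e by 0.31 in WT and 0.11 in D-. The WT call for Eif3e was lost without untreated replicate 1 (adjusted p = 0.135) or 2 (0.0523) or 24 h replicate 2 (0.146) or 3 (0.134), and none of its other 3 probe sets was called. Neither Eif3f nor Eif3e was shown to differ between the lines (differences of -0.16 and -0.21, adjusted p = 0.572 and 0.526, limma). Eif3m was lower at 6 h in both lines by 0.28, a call lost without any of 5 arrays in WT and 6 in D-, while Eif3i and Eif3k were called in no treatment comparison.

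The cap-binding genes moved in opposite directions. Eif4e, for the main cap-binding protein and with the E-box stretch shown above, was 11.76, 11.74, 11.93 and 11.86 in untreated WT and 10.89, 10.83 and 11.00 at 24 h. The D- values were 11.91, 11.58, 12.01 and 12.14 untreated and 11.37, 11.50 and 11.46 at 24 h. The groups did not overlap in either line, and the change was -0.92 ± 0.13 in WT (adjusted p = 2.64e-06, limma) and -0.47 ± 0.13 in D- (0.00623). The difference between the lines was 0.45, with a 95% interval from 0.08 to 0.82, and was not called (adjusted p = 0.109, limma), though a dimmer probe set of Eif4e was called (0.72, adjusted p = 0.0131).

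Eif4e3, whose product binds the cap weakly and is known to oppose eIF4E in some cells, rose. It was 9.23, 8.55, 9.23 and 9.65 in untreated WT, 8.90, 9.38 and 9.56 at 2 h, 10.76, 10.54 and 10.47 at 6 h, and 9.87, 10.87 and 10.58 at 24 h. D- arrays gave 8.49, 7.85, 8.63 and 7.80 untreated, 8.39, 7.99 and 8.25 at 2 h, 10.40, 9.89 and 10.06 at 6 h, and 9.64, 10.01 and 9.67 at 24 h. Arrays at 2 h overlapped the untreated ones in both lines, and those at 6 and 24 h lay above them. The rise was 1.42 ± 0.26 and 1.28 ± 0.26 at 6 and 24 h in WT (adjusted p = 0.000166 and 0.000223, limma), and 1.92 ± 0.26 and 1.58 ± 0.26 in D- (7.63e-06 and 5.55e-05), which is 3.79-fold at 6 h in D-. Its second probe set rose by 1.47 at 24 h in WT. Untreated D- cells had less Eif4e3 signal than untreated WT (-0.97 ± 0.24, adjusted p = 0.0169, limma), although 1 D- array at 8.63 lay above the lowest WT array at 8.55. That call was lost without D- replicate 2 (adjusted p = 0.0734) or 4 (0.0795) or without WT replicate 4 (0.0827), and the second probe set was not called. Eif4e3 and Eif2d were the 2 members called between untreated lines, 5.56% of the 36 beside 5% of all tested genes, and both were lower in D-, beside 3.09% of all genes lower and 1.91% higher.

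Eif4e2, for a cap-binding repressor, changed by 0.00 at 24 h in WT and was lower by 0.33 in D-. The D- call was lost without untreated replicate 1 (adjusted p = 0.056), 2 (0.0924) or 3 (0.0509) or 24 h replicate 2 (0.217) or 3 (0.0858).

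Among inhibitors of eIF4E, Eif4ebp1 fell in both lines. It was 10.91, 10.99, 10.63 and 11.01 in untreated WT, 10.20, 9.68 and 10.00 at 2 h, 10.46, 9.05 and 9.71 at 6 h, and 9.70, 8.74 and 8.76 at 24 h. In D- the level was 10.53, 10.70, 10.35 and 10.21 untreated, 10.06, 9.58 and 9.60 at 2 h, 9.77, 9.23 and 9.50 at 6 h, and 9.34, 8.78 and 8.02 at 24 h. Every treated array lay below every untreated array of its line, and replicate 1 was the highest at each treated time. The change was -0.92, -1.14 and -1.81 ± 0.30 at 2, 6 and 24 h in WT, with a limma adjusted p of 2.36e-05 and a 3.52-fold size at 24 h. In D- it was -0.70, which was not called, then -0.95 and -1.73 ± 0.30, with an adjusted p of 0.000105 and a 3.33-fold size at 24 h. The second probe set changed by -2.07 at 24 h in WT. The 24 h calls held under all 19 alternatives in each line. The earlier calls were less firm: the 2 h call in WT was lost without any of 4 arrays (adjusted p from 0.0563 to 0.121), the 6 h call in WT without 6 h replicate 2 (0.0557), with a change of -0.49 within the smaller array cluster, and the 6 h call in D- without any of 3 arrays (0.0514 to 0.0922).

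Eif4ebp2, for a second 4E-binding protein, was higher at 2 h in WT. It was 9.60, 9.56, 9.82 and 9.79 untreated and 9.97, 10.38 and 10.53 at 2 h, a rise of 0.60 ± 0.14 (adjusted p = 0.00267, limma), and 0.39 within the smaller array cluster (not called). Its other 2 probe sets changed by -0.08 and 0.35 and were not called. The D- change of 0.31 at 2 h was not called, and the difference between the lines was -0.29 (adjusted p = 0.999, limma). Eif4enif1, for a protein that carries eIF4E into the nucleus, was called in no treatment comparison.

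**Figure D3:**
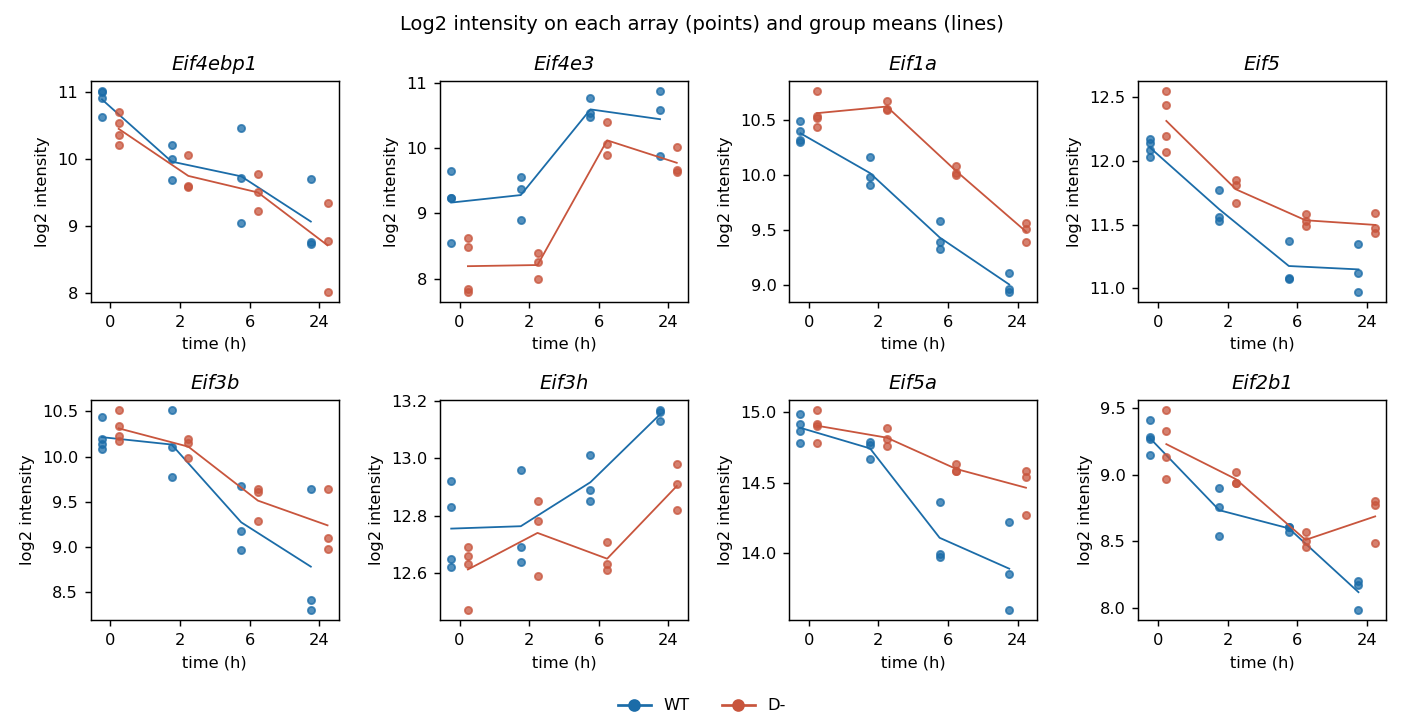
Log2 intensity (vertical axis) on each array (points) and group mean (lines) of 8 eIF genes at 0, 2, 6 and 24 h in WT (blue) and D- (red). Eif4e3 climbs at 6 h in both lines from a lower untreated level in D-, Eif1a and Eif4ebp1 descend, and Eif2b1 in D- stands at 8.80, 8.49 and 8.77 at 24 h, above WT at 8.20, 8.17 and 7.98.

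The helicase and scaffold genes of the cap complex follow. Eif4a1, for the main helicase, was 14.07, 13.95, 14.07 and 13.88 in untreated WT and 13.59, 13.08 and 12.95 at 24 h. In D- it was 14.13, 13.68, 13.92 and 14.02 untreated and 13.83, 13.80 and 13.53 at 24 h. The WT arrays separated and the D- arrays overlapped, with changes of -0.79 ± 0.13 (adjusted p = 2.17e-05, limma) and -0.22 ± 0.13. Eif4a2, for its close paralog, was lower by 0.48 in WT and 0.50 in D-. The WT call was lost without any of 4 arrays (adjusted p from 0.0668 to 0.12), and the D- change was -0.30 without 24 h replicate 1 (0.241). The D- call was lost without untreated replicate 3 (0.0736) or 4 (0.119) too. Eif4h, for a helper of the helicase, was lower at 6 and 24 h in WT (-0.36 and -0.44), with -0.23 at 6 h within the smaller array cluster. The D- changes of Eif4h, -0.22 at 6 h and -0.20 at 24 h, were not called, though a dimmer probe set was called at each time. Eif4b, for the other helper, was not called on its brightest probe set. Of the scaffold genes, Eif4g2 was not called. Eif4g3 stayed under the filter on all 26 arrays: it was between 2.48 and 2.64 in WT, between 2.59 and 2.78 in untreated D-, and 4.52, 3.50 and 4.55 in D- at 24 h.

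Eif5 was the only member called at every time in both lines. Its product, eIF5, makes eIF2 hydrolyse its GTP once the start codon is found. In WT it was 12.14, 12.03, 12.17 and 12.09 untreated, 11.77, 11.53 and 11.56 at 2 h, 11.07, 11.37 and 11.08 at 6 h, and 11.35, 10.97 and 11.12 at 24 h. The D- values were 12.55, 12.07, 12.20 and 12.44 untreated, 11.67, 11.85 and 11.81 at 2 h, 11.58, 11.49 and 11.53 at 6 h, and 11.47, 11.43 and 11.59 at 24 h. No treated array overlapped the untreated arrays of its line. The fall at 2 h was near in size in WT and D- (-0.49 and -0.54 ± 0.11, adjusted p = 0.00246 and 0.00138, limma), and the difference of -0.04 had a 95% interval from -0.38 to 0.29. At 24 h the change was -0.97 in WT and -0.82 in D-. No single array left out removed any of these 6 calls, and within the smaller array cluster the changes kept their direction (-0.32 at 2 h in WT) and none was called.

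Eif5a, whose product carries the amino acid hypusine, was 14.87, 14.99, 14.92 and 14.78 in untreated WT, 14.36, 13.99 and 13.97 at 6 h, and 14.22, 13.59 and 13.85 at 24 h. D- arrays gave 14.90, 14.78, 14.92 and 15.02 untreated, 14.58, 14.63 and 14.58 at 6 h, and 14.58, 14.54 and 14.27 at 24 h. Treated arrays at these times lay below untreated ones in both lines, further below in WT. The 24 h change was -1.0 ± 0.12 in WT (adjusted p = 4.98e-07, limma) and -0.44 ± 0.12 in D- (0.00724), and the latter was lost without D- 24 h replicate 3 (0.0617). Eif5b was lower at 24 h by 0.59 in WT and 0.54 in D-, and Eif6 by 0.79 and 0.53. The D- call for Eif6 was lost without 24 h replicate 2 (adjusted p = 0.0559) or 3 (0.0908).

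The responses of the lines at 24 h were set side by side. Of the 18 genes lower at 24 h in both lines, 14 (77.8%) had the smaller fall in D-, beside 860 of 1110 (77.5%) among all tested genes lower in both. Of the 36 members, 34 (94.4%) changed with the same sign, beside 79.2% of all tested genes, the exceptions being Eif1b (-0.20 in WT and 0.07 in D-) and Eif4e2 (0.00 and -0.33). The difference of response was called at 24 h for 4 genes, 11.1% of members and near the 12.3% of all tested genes, and each of the 4 was higher in D-, beside 7.32% of all genes higher and 5% lower. These were Eif2b1 (0.62 ± 0.16, adjusted p = 0.0129, limma), Eif4a1 (0.57 ± 0.18, 0.0431), Eif5a (0.56 ± 0.17, 0.0342) and Eif1ax (0.49 ± 0.15, 0.0292). The 95% intervals ran from 0.29 to 0.95, from 0.19 to 0.94, from 0.21 to 0.92 and from 0.19 to 0.80. Single arrays left out removed the calls of Eif1ax, Eif4a1 and Eif5a, as the closing section lists, and none removed that of Eif2b1. For Eif4ebp1 the difference at 24 h was 0.08, with a 95% interval from -0.79 to 0.95, which does not show that the lines respond alike. At 2 and 6 h no member was called by limma, beside 0.242% and 0.592% of all genes, with 1 and 4 members at an unadjusted p under 0.05, and 5.96% and 6.35% of all genes.

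**Figure D4:**
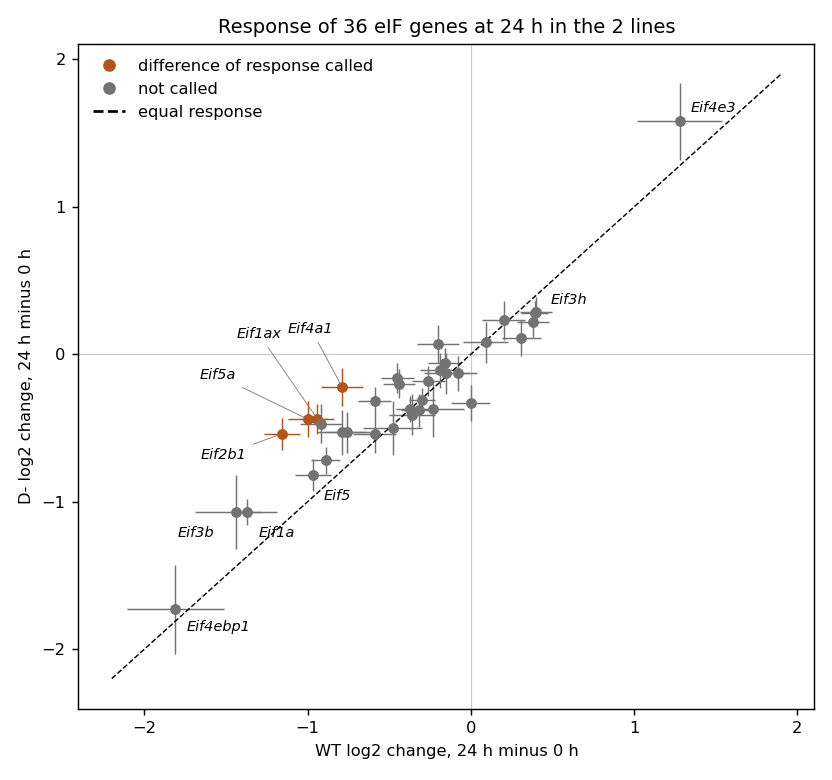
Log2 change at 24 h in D- (vertical axis) against WT (horizontal axis) for 36 eIF genes, with standard errors and a dashed line of equal response. Eif2b1, Eif5a, Eif1ax and Eif4a1 (orange) lie above the line, with WT changes of -1.16, -1.0, -0.94 and -0.79 and D- changes of -0.54, -0.44, -0.44 and -0.22.

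Other probe sets of the same gene gave a check on single probe sets. In WT at 24 h, 18 of the 23 genes with several probe sets were called on the brightest, and for 15 of them another was called in the same direction. The 3 exceptions were Eif2b2, Eif3e and Eif3l, and no gene had another probe set called in the opposite direction. Eif2s2 had 5 probe sets, all lower, from -0.45 to -1.68. In D- at 24 h, 15 were called, 5 of them with no other call (Eif1ax, Eif2b2, Eif4e2, Eif5a and Eif5b), and Eif3i, Eif4a1, Eif4g2 and Eif4h had a call on a dimmer probe set only. Earlier calls depended more on the probe set. On a dimmer one only, 6 members were called at 2 h and 5 at 6 h in WT, and 8 at 2 h and 6 at 6 h in D-. The 8 were Eif1a (-0.36), Eif1ax (-0.70), Eif2s2 (-0.80), Eif3a (-0.60), Eif4b (-0.33), Eif4e (-0.48), Eif4e2 (-0.68) and Eif4g2 (-0.37). A dimmer probe set of Eif4b was lower at 6 h in both lines (-0.33 in WT and -0.37 in D-), while another was higher at 2 h in WT (0.40). One of Eif4g2 was lower at 6 h in WT (-0.32) and at 6 and 24 h in D- (-0.30 and -0.28), and one of Eif3i was lower at 6 and 24 h in D- (-0.30 and -0.39). Of the 4 differences between the lines, those of Eif1ax and Eif4a1 had no second probe set called, that of Eif5a had one (1.16, adjusted p = 0.0391, limma), and Eif2b1 has a single probe set.

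**Figure D5:**
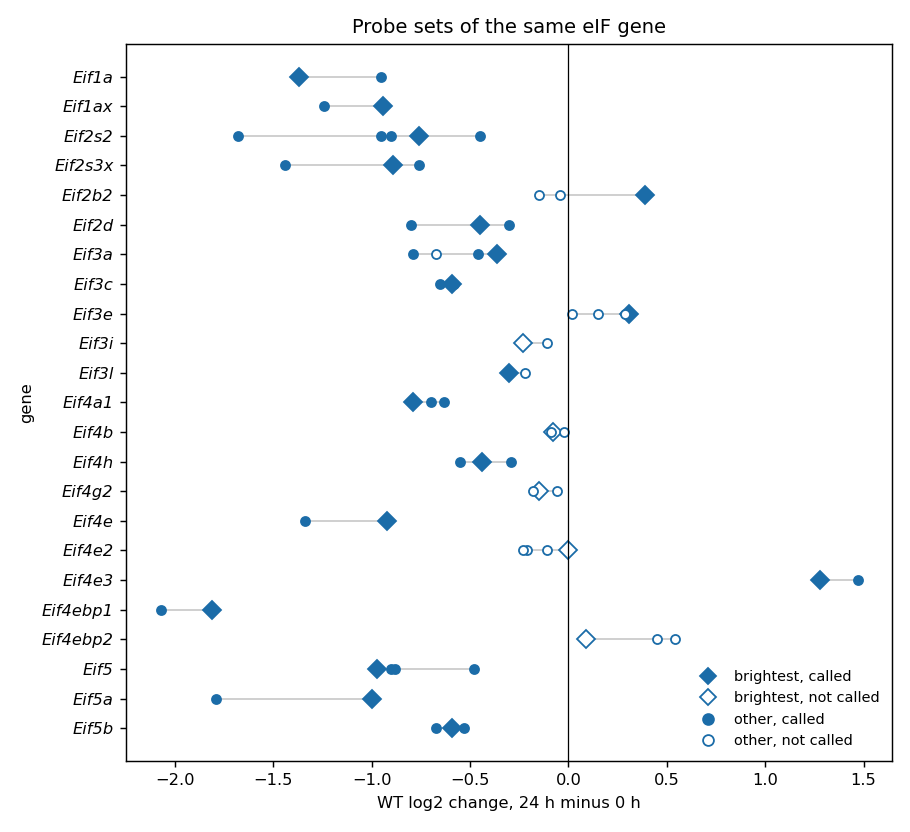
Log2 change at 24 h in WT (horizontal axis) of every probe set that passed the filter for 23 eIF genes with several (rows); diamonds are the brightest probe set and filled symbols are calls at adjusted p under 0.05. Probe sets of Eif5a span -1.79 to -1.0, and those of Eif2b2 span -0.15 to 0.39 with 1 call.

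Eif2ak3 and Ppp1r15a, which regulate eIF2, rose at 24 h in both lines. Of 6 genes for eIF2 kinases and their opposing phosphatase subunits, 2 were higher and 1 lower at 24 h in WT, and 2 were higher in D-, beside 26.4% of all tested genes higher and 27.5% lower in WT and 17.1% and 17.6% in D-. Eif2ak3, for the kinase PERK that phosphorylates eIF2 when the endoplasmic reticulum is stressed, rose by 1.78, 1.96 and 2.76 at 2, 6 and 24 h in WT and by 2.06, 2.00 and 2.82 in D-. Eif2ak1, Eif2ak2 and Eif2ak4, for the other eIF2 kinases, were not called. Ppp1r15a, whose product GADD34 directs removal of that phosphate, rose by 3.91, 2.25 and 2.18 in WT, and by 2.69 at 2 h and 0.68 at 24 h in D-, where the 6 h change of 0.60 was not called. The D- minus WT difference was -1.65 at 6 h and -1.49 at 24 h (adjusted p = 0.0253 and 0.00561, limma). Its constitutive relative Ppp1r15b was lower by 0.28 at 24 h in WT, and the D- minus WT difference was 0.51 (adjusted p = 0.0241, limma).

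Among 19 tested genes for proteins that work with the factors, 5 were higher and 5 lower at 24 h in WT, and 4 were higher and 4 lower in D-, near the shares of all tested genes (26.4% higher and 27.5% lower in WT). Pdcd4, for an inhibitor of eIF4A, rose by 1.60, 1.86 and 2.60 at 2, 6 and 24 h in WT and by 1.20, 1.59 and 2.72 in D-. Abce1, for the protein that splits ribosomes after termination, fell by 1.34 and 0.90 at 24 h in WT and D-. Mknk2, for a kinase that phosphorylates eIF4E, rose by 0.97 at 24 h in D-. Bzw2, for a protein resembling part of eIF5, rose by 1.19 at 24 h in WT, and the D- minus WT difference was -0.71 (adjusted p = 0.00682, limma). Pabpc1, for the poly(A)-binding protein, was not called at any time in either line.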

How the data were processed

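Per the submitters' processing notes, intensities were computed with GCRMA (version and genome build not given in the sources used here). The deposited values are the authors' linear intensities for 22690 probe sets on 26 arrays. They were taken to log2. The 64 array controls were left out. Of the rest, 20380 probe sets have 1 gene symbol in the platform annotation, 691 several and 1555 none, and annotation names can be old. Probe sets at or above log2 5 on at least 3 arrays were kept (12724), and a gene was read from its brightest probe set.

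limma 3.58.1 in R 4.3.3 fitted 8 group means to all 26 arrays (18 residual degrees of freedom), with 10 contrasts and Benjamini-Hochberg adjustment in each. Differences between lines are interaction contrasts. On simulated data for WT at 24 h, with 12724 probe sets, 40.3%, 80.9% and 100% of changes of 0.5, 1 and 2 on the log2 scale were recovered, with 4 false calls. Only 72, 68 and 60 probe sets were changed by these sizes, and the noise was independent, with no array clusters. The data differ in both, so these values do not give the power or error of the reported calls. The number of arrays limits the precision. Replicate numbers were tried as a block. Their 85 same-number pairs correlated from -0.468 to 0.655 (median 0.266). Pairing required every pair to be over 0.1, and 68 were, so the numbers were not taken to pair arrays. Alternatives were other variance models, normalizations, filters, array clusters, the mean of a gene's probe sets and each array left out. Every member may be named. Of each companion list, up to 3 called genes of largest change per comparison may be named, and Eif2ak1 to Eif2ak4, Pabpc1, Pdcd4, Eef2 and Myc always. The members and lists were chosen with earlier results of these data known. RefSeq windows on GRCm38.p6 gave the promoters. Tables and figures used Python 3.11.15, pandas 2.3.3, numpy 2.4.6 and matplotlib 3.10.9.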

Additional observations from a re-analysis of the deposited data

Results flagged for a closer look

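In untreated D- cells, replicate 4 stood apart for 2 genes. Eif4g2 was 13.89 on that array and between 13.83 and 13.84 on the others, and Eif5b was 11.17, with the others between 10.97 and 10.99. Among 72 groups of 4 arrays examined, these 2 had a gap that large. Chance marks about 1 group in 20, so 2 flagged groups are no more than chance would mark.

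The response at 24 h differed between the lines for Eif1ax (0.49), Eif2b1 (0.62), Eif4a1 (0.57) and Eif5a (0.56), as log2 change in D- minus that in WT, by the interaction contrast in limma. The call for Eif1ax was lost without D- 0 h replicate 1, D- 24 h replicate 1 or 3, or WT 24 h replicate 2 or 3 (adjusted p from 0.0563 to 0.115). That for Eif5a was lost without D- 0 h replicate 1 or 2, D- 24 h replicate 1 or 2, WT 0 h replicate 2 or 3, or WT 24 h replicate 2 or 3 (0.0528 to 0.14). That for Eif4a1 was lost without D- 0 h replicate 2 or 3, D- 24 h replicate 1 or 2, WT 0 h replicate 1, 2 or 3, or WT 24 h replicate 2 or 3 (0.0559 to 0.154).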

How the results depend on the processing

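Of 7632 values for single genes under the alternatives, 249 lost a call, 124 gained one, 7259 stayed on their side of the threshold, and no called value reversed. Within the smaller array cluster, which has 2 residual degrees of freedom, the genes called fell to 0, 2 and 10 at 2, 6 and 24 h in WT, to 0, 1 and 3 in D-, and to 0 both for untreated D- against WT and for the response difference at the last time. For D- at 2 h (1 gene) the count was 3 with the array cluster as a block, 4 with array weights, 2 with median centring, 2 with only the groups compared and 3 with the replicate block. For untreated D- against WT (2 genes) it was 1 with median centring, 0 with only those groups and 1 within the larger cluster. For the difference of response at 6 h (0 genes) it was 1 with the cluster block, 3 with array weights, 1 without the filter and 1 with the replicate block. At 24 h (4 genes) it was 2 with median centring, 0 with only the groups compared and 2 with quantile normalization.

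With the replicate block the counts were otherwise within 1.5 times, such as 28 in place of 27 for WT at 24 h, and 8 of 26 arrays correlated best with their own number. Leaving out single arrays gave 4 to 7, 16 to 18 and 22 to 27 genes at 2, 6 and 24 h in WT, 1 to 2, 7 to 13 and 17 to 21 in D-, 0 to 2 for untreated D- against WT, and 0 to 0, 0 to 0 and 1 to 7 for the differences of response at 2, 6 and 24 h. The lowest count for D- at 6 h, 7, came without D- 6 h replicate 2. The cause of these shifts was not tested.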

Other observations

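Genes for later steps of translation were counted at 24 h, beside 27.5% of all tested genes lower and 26.4% higher in WT and 17.6% and 17.1% in D-. Of 4 tested genes for termination and recycling, 3 were lower at 24 h in each line by limma. Gspt1 and Etf1, which encode the release factors, changed by -1.35 and -1.11 in WT and by -0.79 and -0.65 in D-, and Pelo, for a ribosome rescue factor, by -1.02 and -0.70. Of 10 genes named as elongation factors or encoding enzymes that modify translation factors, 3 were lower and 1 higher in WT, and 4 lower in D-. The WT count is near the share of all genes lower. Eef1e1 changed by -1.41 and -1.17, Dph2, needed to make the diphthamide of eEF2, by -1.28 and -0.96, and Eef1d by -0.86 and -0.77. Eef2, for the translocase, was the gene that rose in WT (0.46, adjusted p = 0.00155). Of 5 mitochondrial translation genes, 3 were lower and 1 higher in WT and 2 lower and 1 higher in D-. Gfm1 changed by -1.23 and -0.95, Tufm by -0.90 and -0.44, and Mtif2, for the mitochondrial initiation factor, by 0.59 and 0.38.

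Of 19 tested genes of the mTORC1 and S6 kinase pathway, which controls 4E-binding proteins, 7 were higher and 0 lower at 24 h in WT, and 5 were higher and 0 lower in D-. Among all tested genes 26.4% were higher and 27.5% lower in WT, and 17.1% and 17.6% in D-. Sesn1, Ddit4 and Sesn3, which encode restraints on mTORC1, rose by 2.20, 1.88 and 1.65 in WT and by 1.03, 2.06 and 1.12 in D-. At 24 h the difference of response was called for 3 of the 19 genes, all lower in D-. Among all tested genes 5% were lower, and 12.3% were called in either direction. The 3 were Sesn1 (-1.17, adjusted p = 0.0233, limma), Rragc (-0.61, 0.00581) and Lamtor4 (-0.65, 0.0449).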
